A study of Arabidopsis thaliana with 6 samples.

Results

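The genes described here are 53 nuclear loci that encode the protein parts of the photosynthetic machinery: 14 light-harvesting antenna genes of photosystem II (LHCB), 6 of photosystem I (LHCA), 12 subunits of photosystem I (PSA), 10 subunits of photosystem II (PSB), 6 genes of electron transport and the ATP synthase, and 5 for Rubisco and its activase. They were taken as a list of loci from a table of 27628 loci, and all 53 passed the filter on low counts that 20827 loci passed. The RNA came from siliques (the fruits) of Arabidopsis thaliana. There were 3 libraries from wild type (WT) plants and 3 from plants labelled shp1 shp2 mrpl1, a triple mutant of the MADS-box genes SHP1 and SHP2, which specify the valve margin of the fruit, and of MRPL1, a gene for a mitochondrial ribosomal protein. All plants grew on sucrose-supplemented medium under long days. The labels give no allele, plant age, silique stage or number of plants per library. Nor do they say whether replicates were separate plants, so the p-values reflect only how far these libraries differ, which may be technical.

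Light is captured by chlorophyll bound to the LHCB and LHCA proteins and passed to the photosystems, which drive electrons from water through plastocyanin to ferredoxin. The proton gradient built up on the way drives the ATP synthase, and Rubisco uses the products to fix carbon dioxide. Green silique walls and the embryos inside them are both photosynthetic, and transcription of these nuclear genes is known to be raised by light and lowered by sugar and by signals from impaired chloroplasts.

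The libraries held between 17857873 and 21603816 estimated counts. Of all loci tested, 4.89% (1018) were higher in the mutant-labelled libraries and 4.07% (847) were lower, by edgeR's quasi-likelihood test at a Benjamini-Hochberg adjusted p under 0.05. Of those calls 54.6% were higher, against 65.1% when only library totals were used for scaling and 41.2% after a correction for transcript length. Of the genes in the genotype, SHP1 fell by 0.51 on the log2 scale, while SHP2 differed by -0.01 and MRPL1, taken as AT2G42710 because the labels give no locus, by 0.24, neither called (edgeR adjusted p = 0.00242, 0.937 and 0.172). The groups are therefore named as labelled. Replicate 1 stood apart in both groups. Divided by its degrees of freedom, the chi-square between count profiles was 11.9 and 12.01 for pairs with WT replicate 1 and 2.54 for the other WT pair, and 9.10 and 7.67 for pairs with mutant-labelled replicate 1 and 2.88 for the other pair.

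Of the 53 photosynthesis genes, 10 were called higher and 0 lower in the mutant-labelled siliques by edgeR, 18.9% against the 4.89% of all genes called higher. The called genes were 4 antenna genes of photosystem II, the photosystem I subunit gene PSAN, the oxygen-evolving complex genes PSBO1, PSBO2 and PSBP1, the plastocyanin gene PETE2 and the ferredoxin gene FD2. The ratio of mean CPM (counts scaled to library size), mutant-labelled over WT, ran from 1.17 to 1.67 among the 10. An unadjusted p under 0.05 was reached by 31 of the 53 genes in edgeR, all of them higher, against 11.3% of all genes that were higher at that p. DESeq2 called 7 higher and 0 lower, against 4.46% of all genes called higher, and limma voom with quality weights 38 higher and 0 lower. Voom called 10.5% of all genes higher.

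The remaining 43 genes were not called. In all, 50 of the 53 fitted log2 fold changes were positive and 3 negative, and their median was 0.17, against -0.0016 for all genes tested. The ratios had a median of 1.12 and ran from 0.923 for LHCA5 to 1.67 for LHCB1.4. In 28 members, 52.8%, every mutant-labelled library lay above every WT library, against 13.7% of all genes tested, and in 0 members did every mutant-labelled library lie below. The member transcripts had a median length of 1182 bases against 1468 for all matched transcripts. Log2 fold changes across all genes fell with length (Spearman rho -0.25). Over the 53 members, which span 607 to 1977 bases, rho was -0.03. A rho within the list cannot show whether the list as a whole was shifted with length. With each library's length trend removed, the members' median was 0.087 against -0.03 for all genes, with 11 called higher and 1 lower. Of the 53 log2 fold changes 46 were then positive. Of all genes 6.48% were then called higher and 9.23% lower. The 11 included 8 of the 10 genes above, and the calls of LHCB2.2 (0.14; edgeR adjusted p = 0.0999) and FD2 (0.13; edgeR adjusted p = 0.120) were lost.

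**Figure D1:**
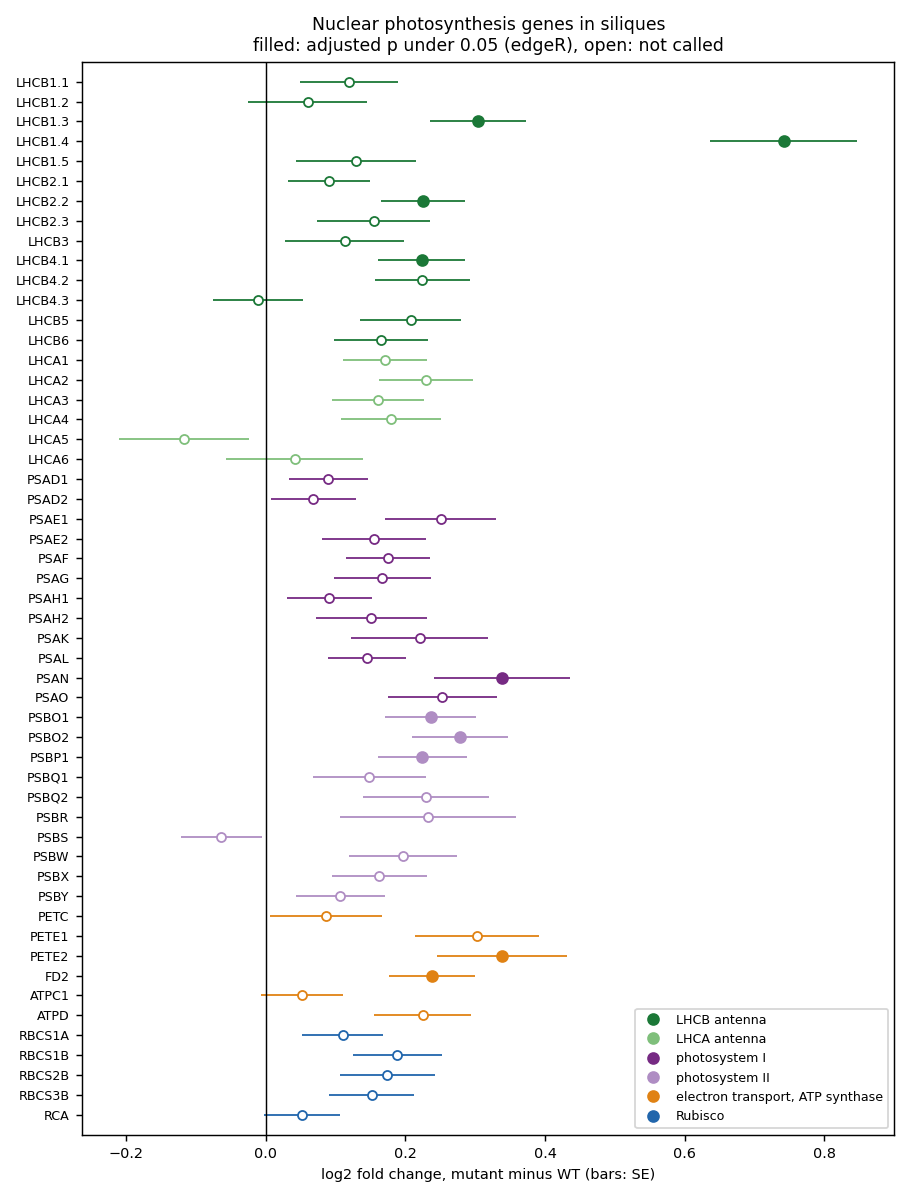
Log2 fold change of the 53 members, mutant-labelled minus WT, with bars for the standard error and filled points for the 10 called by edgeR. LHCB1.4 stands furthest to the right at 0.74, and 50 of the 53 points lie above 0.

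The 5 LHCB1 genes encode nearly the same protein, the main subunit of the mobile antenna, and they differ in level and in change. Their coding sequences are between 86.8% and 96.4% identical in pairs, and LHCB1.1, LHCB1.2 and LHCB1.3 lie side by side on chromosome 1 while LHCB1.4 and LHCB1.5 neighbour each other on chromosome 2. The last 90 coding bases before the stop codon are shown because they separate the 2 clusters and show how few bases tell the copies apart. They are read 5′ to 3′ from the TAIR10.1 RefSeq annotation, and capitals mark the bases that differ from LHCB1.3.
LHCB1.1: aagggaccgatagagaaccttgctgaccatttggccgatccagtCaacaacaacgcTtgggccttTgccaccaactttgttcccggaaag
LHCB1.2: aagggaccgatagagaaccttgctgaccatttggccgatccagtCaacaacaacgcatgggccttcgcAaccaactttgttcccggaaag
LHCB1.3: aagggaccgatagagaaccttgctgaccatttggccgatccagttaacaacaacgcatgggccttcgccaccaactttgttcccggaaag
LHCB1.4: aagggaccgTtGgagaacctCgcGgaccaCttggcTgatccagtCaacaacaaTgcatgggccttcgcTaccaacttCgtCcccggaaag
LHCB1.5: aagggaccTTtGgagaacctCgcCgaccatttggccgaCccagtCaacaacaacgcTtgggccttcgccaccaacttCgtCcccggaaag
Over this stretch LHCB1.1 differs from LHCB1.3 at 3 positions, LHCB1.2 at 2, LHCB1.4 at 11 and LHCB1.5 at 10.

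LHCB1.4 (AT2G34430, LHB1B1 in the reference; 1 exon on the plus strand, chr2:14524607-14525918 in TAIR10.1) had the largest increase of the 53. It stood at 11.2, 10.02 and 11.6 CPM in WT replicates 1 to 3 and at 17.8, 16.7 and 20.3 CPM in mutant-labelled replicates 1 to 3. The groups were well apart, and the rise held in every library. The log2 fold change was 0.74 (SE 0.11; edgeR adjusted p = 0.000619), and the gene was called higher under all 17 other settings tried, with values between 0.66 and 0.80. In WT it was also the lowest of the 53 in level per length, at 8.33 ± 0.616 CPM per kb (SD, n = 3). It supplied between 0.214% and 0.255% of LHCB1 counts in the WT libraries and between 0.322% and 0.341% in the mutant-labelled ones. Of its 50-base windows, 13.7% occur in another transcript, first of all LHCB1.5, and its counts were not whole, so its reads may have been divided between copies.

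LHCB1.3 (AT1G29930, CAB1; 1 exon on the plus strand, chr1:10477885-10479114) is among the most abundant of the list and was called as well. It stood at 1938, 1804 and 1733 CPM in WT and at 2197, 2110 and 2455 CPM in the mutant-labelled libraries, again with no overlap. Its log2 fold change was 0.30 (SE 0.069; edgeR adjusted p = 0.0135). Its share of LHCB1 counts was 37.0% to 38.9% in WT and 40.6% to 42.1% in the mutant-labelled libraries. The shares of the other abundant copies lay lower in every mutant-labelled library, between 34.6% and 36.4% for LHCB1.5 against 36.7% to 37.6% in WT. LHCB1.3 shares 22.0% of its windows with other transcripts and overlaps an antisense gene by 108 bases.

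LHCB1.5 (AT2G34420, LHB1B2) had the highest LHCB level per length, 1702 ± 161 CPM per kb in WT, and was not called. It stood at 1971, 1701 and 1662 CPM in WT and at 1803, 1830 and 2203 CPM in the mutant-labelled libraries. WT replicate 1 lay above both mutant-labelled replicates 1 and 2, so the groups overlapped. The whole transcript, 1045 bases, lies within an antisense gene, and no strand setting was given in the sources used here. The sum of the 5 copies, which does not depend on how reads were divided among them, ran from 4527 to 5240 CPM in WT and from 5184 to 6053 CPM in the mutant-labelled libraries. Its log2 fold change of 0.19 (SE 0.075) was not called (edgeR adjusted p = 0.147).

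LHCB2.2 (AT2G05070; 2 exons on the minus strand, chr2:1799234-1800472) is 1 of 3 genes for the other main subunit of the mobile antenna and shares 19.8% of its windows with LHCB2.1. It stood at 190, 197 and 201 CPM in WT and at 224, 229 and 235 CPM in the mutant-labelled libraries. These narrow groups did not overlap, and the log2 fold change was 0.23 (SE 0.060; edgeR adjusted p = 0.0325). LHCB4.1 (AT5G01530; 2 exons on the plus strand, chr5:208866-210548) encodes a minor antenna protein that links the mobile antenna to the photosystem II core. It stood at 542, 508 and 517 CPM in WT and at 583, 595 and 651 CPM in the mutant-labelled libraries. The mutant-labelled libraries were again all higher (log2 fold change 0.22, SE 0.062; edgeR adjusted p = 0.0420). LHCB4.3, a relative of LHCB4.1, stood at 142, 138 and 139 CPM in WT and at 132, 139 and 145 CPM in the mutant-labelled libraries. Its log2 fold change of -0.01 was the smallest of the LHCB group, whose 14 members had a median of 0.16.

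Among the 6 LHCA genes, which encode the antenna belt of photosystem I, 0 were called by edgeR or DESeq2 and 4 by limma voom, and 4 reached an unadjusted p under 0.05 in edgeR. LHCA2 was nearest, at 483, 445 and 460 CPM in WT and at 509, 532 and 586 CPM in the mutant-labelled libraries. Its groups did not overlap, and its log2 fold change was 0.23 (SE 0.067; edgeR adjusted p = 0.0504). LHCA3, the most abundant of the group per length, stood at 667, 606 and 610 CPM in WT and at 664, 691 and 749 CPM in the mutant-labelled libraries. Mutant-labelled replicate 1 fell below WT replicate 1 there (log2 fold change 0.16; edgeR adjusted p = 0.169). LHCA5, a scarce antenna protein that helps dock other complexes to photosystem I, had the lowest log2 fold change of the 53, -0.12 (SE 0.093; edgeR adjusted p = 0.516), at 33.8, 28.4 and 29.1 CPM in WT and at 26.5, 30.8 and 26.9 CPM in the mutant-labelled libraries. After the length correction LHCA5 was called lower, at -0.22 (edgeR adjusted p = 0.0286).

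All 12 photosystem I subunit genes had positive log2 fold changes, with a median of 0.16, and in 8 of them the groups did not overlap. PSAN (AT5G64040; 3 exons on the minus strand, chr5:25628521-25629708), whose product sits on the lumen side and aids electron transfer from plastocyanin, was the 1 gene called. It stood at 177, 153 and 142 CPM in WT and at 172, 216 and 210 CPM in the mutant-labelled libraries. Mutant-labelled replicate 1 lay below WT replicate 1, while the other mutant-labelled libraries were well above WT (log2 fold change 0.34, SE 0.097; edgeR adjusted p = 0.0480). PSAL, a subunit through which antenna docks, was the most abundant of the group per length and kept within narrow limits, at 522, 516 and 533 CPM in WT and at 566, 579 and 592 CPM in the mutant-labelled libraries. It missed the threshold (log2 fold change 0.15, SE 0.055; edgeR adjusted p = 0.136). PSAD2, 1 of 2 genes for the subunit that docks ferredoxin, changed least, at 169, 164 and 167 CPM in WT and at 171, 171 and 182 CPM in the mutant-labelled libraries (log2 fold change 0.07).

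In photosystem II the called genes belonged to the oxygen-evolving complex, the lumenal proteins that stabilise the manganese cluster where water is split. Not every gene of that complex was called. PSBQ1 and PSBQ2 had log2 fold changes of 0.15 and 0.23 and were not called (edgeR adjusted p = 0.318 and 0.152). PSBO1 (AT5G66570; 3 exons on the plus strand, chr5:26568572-26570461) stood at 663, 616 and 603 CPM in WT and at 707, 720 and 791 CPM in the mutant-labelled libraries (log2 fold change 0.24, SE 0.065; edgeR adjusted p = 0.0379). PSBO2 (AT3G50820; 3 exons on the minus strand, chr3:18890874-18892508), the minor copy, stood at 200, 184 and 188 CPM in WT and at 214, 242 and 236 CPM in the mutant-labelled libraries (log2 fold change 0.28, SE 0.068; edgeR adjusted p = 0.0213). Both copies were higher in every mutant-labelled library, and their sum was called as well, at 0.25 (edgeR adjusted p = 0.0263). PSBP1 (AT1G06680; 4 exons on the plus strand, chr1:2047634-2049439) stood at 551, 493 and 490 CPM in WT and at 579, 612 and 600 CPM in the mutant-labelled libraries (log2 fold change 0.22, SE 0.064; edgeR adjusted p = 0.0443), also without overlap.

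PSBR, the most abundant photosystem II gene of the list per length at 1396 ± 207 CPM per kb in WT, varied more within groups. It stood at 1281, 993 and 1009 CPM in WT and at 1057, 1402 and 1400 CPM in the mutant-labelled libraries. WT replicate 1 was near the upper mutant-labelled values and mutant-labelled replicate 1 near the lower WT values, and the log2 fold change of 0.23 had a standard error of 0.13 (edgeR adjusted p = 0.329). PSBS, the sensor protein of photoprotective energy dissipation, was 1 of the 3 genes with a negative value, -0.06 (edgeR adjusted p = 0.574), at 412, 383 and 394 CPM in WT and at 373, 380 and 384 CPM in the mutant-labelled libraries.

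Of the soluble electron carriers, PETE2 and FD2 were called higher. PETE2 (AT1G20340, DRT112 in the reference; 1 exon on the minus strand, chr1:7042046-7043392), which encodes the main plastocyanin, stood at 297, 243 and 241 CPM in WT and at 290, 348 and 349 CPM in the mutant-labelled libraries. Replicates 1 of the groups lay side by side and the others far apart (log2 fold change 0.34, SE 0.093; edgeR adjusted p = 0.0399). PETE1, the second plastocyanin gene, missed the threshold with groups that did not overlap, at 42.6, 39.0 and 35.8 CPM in WT and at 43.9, 49.0 and 52.0 CPM in the mutant-labelled libraries (log2 fold change 0.30, SE 0.089; edgeR adjusted p = 0.0512). The sum of both was called, at 0.33 (edgeR adjusted p = 0.0374).

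FD2 (AT1G60950, FED A in the reference; 1 exon on the plus strand, chr1:22444307-22445291), the main leaf ferredoxin gene, stood at 223, 219 and 225 CPM in WT and at 252, 257 and 277 CPM in the mutant-labelled libraries. The groups were tight and separate (log2 fold change 0.24, SE 0.062; edgeR adjusted p = 0.0291), and after the length correction the value was 0.13 and not called. PETC, which encodes the Rieske protein of the cytochrome b6f complex, was the most abundant of these 6 genes per length in WT. In the mutant-labelled libraries FD2 stood higher, at 266 against 249 CPM per kb. PETC overlapped between groups, at 262, 225 and 220 CPM in WT and at 229, 261 and 261 CPM in the mutant-labelled libraries (log2 fold change 0.09). ATPC1, for the gamma subunit of the ATP synthase, changed least, at 196, 195 and 192 CPM in WT and at 197, 205 and 203 CPM in the mutant-labelled libraries (log2 fold change 0.05; edgeR adjusted p = 0.663).

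**Figure D2:**
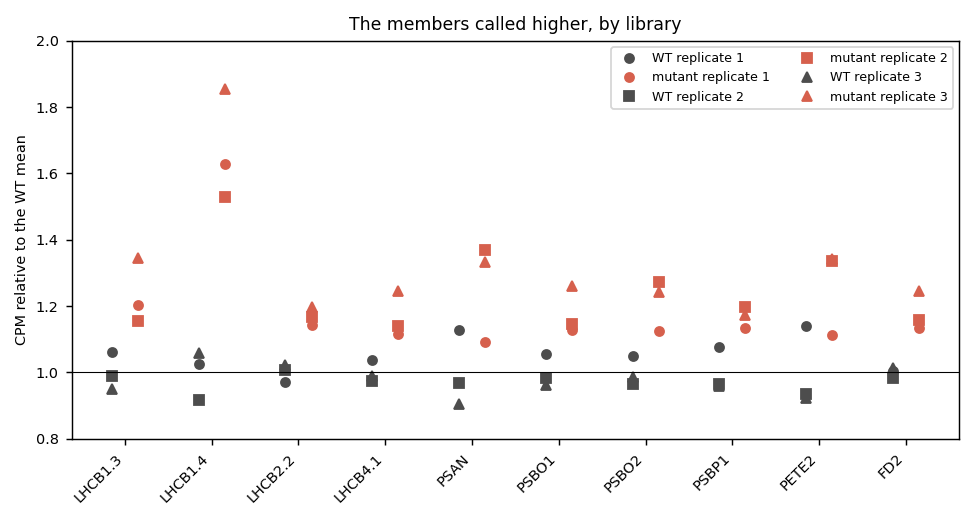
Level of the 10 called members in each library, as CPM divided by the WT mean of that gene, on an axis that starts at 0.8. Grey points are WT and red points mutant-labelled libraries. Mutant-labelled replicate 1 falls below WT replicate 1 in PSAN and PETE2.

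Of the 5 Rubisco genes 0 were called by edgeR or DESeq2 and 4 by limma voom, and 3 of them reached an unadjusted p under 0.05 in edgeR. RBCS1A, the leading gene for the small subunit, had the highest level per length of the 53, 1758 ± 51.7 CPM per kb in WT. It stood at 2295, 2164 and 2230 CPM in WT and at 2322, 2360 and 2538 CPM in the mutant-labelled libraries, so that the groups lay next to each other without overlap (log2 fold change 0.11, SE 0.058; edgeR adjusted p = 0.295). RBCS1B had the largest fitted change of the 5, at 114, 111 and 114 CPM in WT and at 124, 128 and 134 CPM in the mutant-labelled libraries, and was not called (log2 fold change 0.19, SE 0.064; edgeR adjusted p = 0.0927). RCA, the activase that frees Rubisco of bound inhibitors, changed least, at 1051, 1017 and 1013 CPM in WT and at 1054, 1044 and 1096 CPM in the mutant-labelled libraries (log2 fold change 0.05).

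The members together made up 2.09% to 2.298% of counts in WT and 2.37% to 2.62% in the mutant-labelled libraries. After scaling, their summed level was 21182 to 23405 CPM in WT and 23360 to 26224 CPM in the mutant-labelled libraries, a ratio of 1.12 between means, and mutant-labelled replicate 1 lay just under WT replicate 1. The ratio was 1.13 for the LHCB sum, 1.13 for LHCA, 1.12 for photosystem I, 1.14 for photosystem II, 1.15 for electron transport and the ATP synthase, and 1.08 for Rubisco. The LHCB counts stood at 2.52 to 2.76 times the RBCS sum in WT and at 2.70 to 2.85 times in the mutant-labelled libraries, ranges that overlap.

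**Figure D3:**
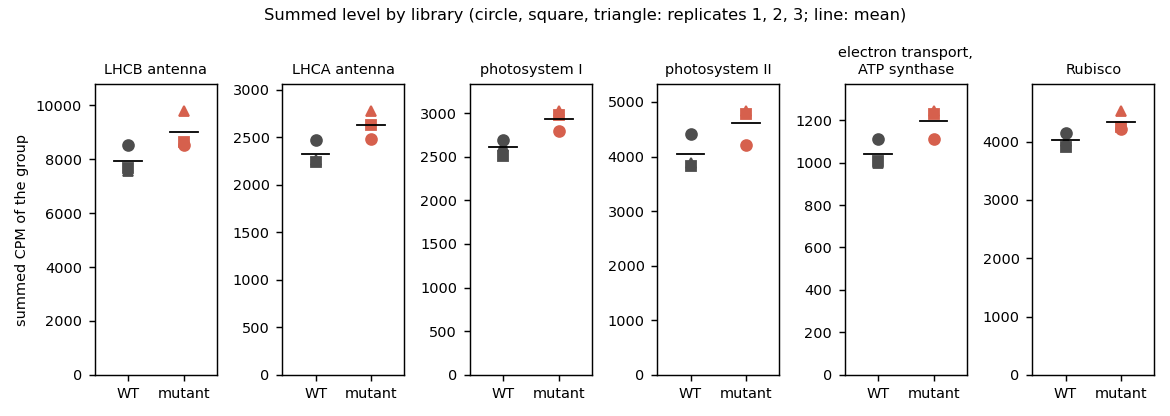
Summed CPM of each role group in each library, with grey points for WT, red points for mutant-labelled libraries, shapes for replicates and lines for group means. Replicate 1 (circles) is the highest WT point in each panel and the lowest mutant-labelled point in each panel.

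The number of members called moved with the libraries included. WT replicate 1 was the highest WT library in 42 of the 53 members, mutant-labelled replicate 1 the lowest of its group in 44, and both were so in 38. These counts were not made for all genes tested. Over all of those, the deviations of the 2 replicates 1 from their group means correlated at -0.36, so the opposed shift is not particular to the members. In 48 members mutant-labelled replicates 2 and 3 both lay above WT replicates 2 and 3, as they did in 31.8% of all genes tested. With WT replicate 1 left out edgeR called 25 members higher, and with mutant-labelled replicate 1 left out 21, with all 10 kept in each case. Of all genes, 7.29% and 5.44% were called higher in these fits. Without both it called 42, again with all 10 among them, while 15.3% of all genes were then called higher and the members' median was 0.25. Limma voom with quality weights, which gives less weight to libraries that stand apart, made the 38 calls given above. Leaving out WT replicate 2, WT replicate 3 or mutant-labelled replicate 3 left 1 member called, LHCB1.4, and leaving out mutant-labelled replicate 2 left 2, LHCB1.4 and LHCB1.3. The share of all genes called higher was 3.18% and 2.89% when replicate 2 or 3 of WT was dropped, and 3.3% and 2.75% when replicate 2 or 3 of the mutant-labelled group was dropped. The fall of log2 fold changes with transcript length over all genes moved too. Its rho was -0.45 without both replicates 1, -0.37 with voom and -0.36 without replicate 1 of either group. Without WT replicate 2 or 3 it was -0.13 and -0.19, and without mutant-labelled replicate 2 or 3 -0.12 and -0.19. The length correction was applied only to the full set of libraries, so the part of length in these counts was not tested. The labels give no batch, and what set replicate 1 apart was not tested.

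**Figure D4:**
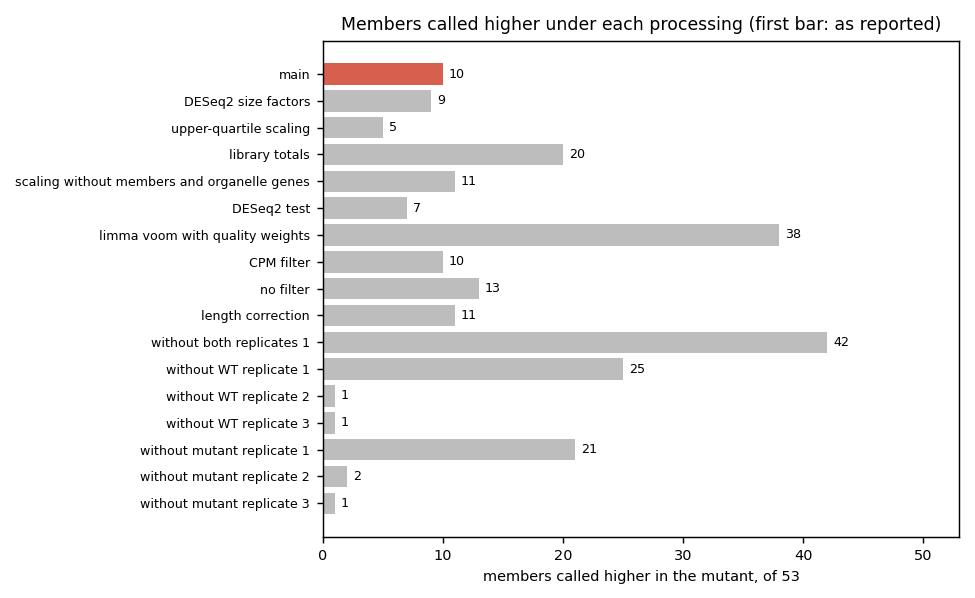
Number of the 53 members called higher under each setting except the replicate block, with the reported fit as the first bar at 10. The bars run from 1 or 2 members, when a library other than the replicates 1 is left out, to 42 members when both replicates 1 are left out.

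Promoters of the list are known for short light-responsive elements. The 250 bases before the annotated start of each gene were searched on both strands for the G-box CACGTG, which bZIP and bHLH factors such as HY5 bind, the I-box GATAAG and the CCAAT box. The G-box was found in 11 of the 53 windows (20.8%), against 6.60% of 27418 nuclear genes. The I-box was found in 16 (30.2%) against 12.3%, and the CCAAT box in 35 (66.0%) against 46.0%. Of the 10 genes called higher, 1 held a G-box, 1 an I-box and 6 a CCAAT box. The windows of LHCB1.4 and LHCB1.3 are shown as those of the gene with the largest increase and of the most abundant called gene, LHCB4.1 as the called gene with a G-box, and RBCS2B as an uncalled gene with all 3 elements. In TAIR10.1 they are chr1:10477635-10477884 on the plus strand, chr2:14524357-14524606 on the plus strand, chr5:208616-208865 on the plus strand and chr5:15382072-15382321 on the minus strand, for LHCB1.3, LHCB1.4, LHCB4.1 and RBCS2B in that order. They are read 5′ to 3′ along the gene's strand, and capitals mark matches to any of the 3 elements on either strand.
LHCB1.3: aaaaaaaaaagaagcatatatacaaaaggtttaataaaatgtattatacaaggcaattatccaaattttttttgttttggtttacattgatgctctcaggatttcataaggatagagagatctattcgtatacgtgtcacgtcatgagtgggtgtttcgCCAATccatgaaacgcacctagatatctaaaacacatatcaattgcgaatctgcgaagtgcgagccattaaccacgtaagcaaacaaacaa
LHCB1.4: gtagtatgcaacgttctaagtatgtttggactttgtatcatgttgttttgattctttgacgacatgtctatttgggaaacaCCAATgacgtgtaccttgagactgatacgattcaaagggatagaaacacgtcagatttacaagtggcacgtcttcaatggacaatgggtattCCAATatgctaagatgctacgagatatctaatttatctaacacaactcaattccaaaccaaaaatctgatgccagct
LHCB4.1: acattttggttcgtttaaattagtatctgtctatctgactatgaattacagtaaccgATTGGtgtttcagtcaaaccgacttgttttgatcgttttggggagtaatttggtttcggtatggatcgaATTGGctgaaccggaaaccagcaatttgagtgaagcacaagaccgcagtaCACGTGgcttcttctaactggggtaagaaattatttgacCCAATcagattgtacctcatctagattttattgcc
RBCS2B: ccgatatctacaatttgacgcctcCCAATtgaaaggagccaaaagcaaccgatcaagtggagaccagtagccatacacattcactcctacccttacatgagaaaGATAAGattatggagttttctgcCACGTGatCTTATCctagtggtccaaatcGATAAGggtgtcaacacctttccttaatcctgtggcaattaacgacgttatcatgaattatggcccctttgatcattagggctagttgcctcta
The LHCB1.4 window holds 2 CCAAT boxes and the LHCB1.3 window 1, each with 0 matches to the other elements. A match is a match of letters, and binding was not measured.

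Genes around the same machinery are given beside the members. Of 16 Calvin cycle genes, 0 were called by edgeR or DESeq2 and 5 by limma voom, all higher, and 4 reached an unadjusted p under 0.05 in edgeR. Their median log2 fold change was 0.09. The smallest p belonged to CP12-2, a small regulator that binds Calvin cycle enzymes in the dark, at 0.27 (edgeR adjusted p = 0.122). Of 11 photorespiration genes 0 were called by edgeR or DESeq2, 1 was called lower by limma voom and 0 reached an unadjusted p under 0.05 in edgeR (median -0.02). The smallest p was that of GOX1, a peroxisomal glycolate oxidase, at -0.11 (edgeR adjusted p = 0.293). Of 6 genes for import and assembly of antenna proteins 0 were called by edgeR, DESeq2 or limma voom (median 0.03), and 1 reached an unadjusted p under 0.05 in edgeR, CPSRP54, which carries antenna proteins through the stroma (0.16; edgeR adjusted p = 0.213).

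Of 21 other thylakoid genes (median -0.0046) 0 were called higher and 2 lower by edgeR and by DESeq2. Limma voom called 3 higher and 2 lower (median 0.07), and edgeR without both replicates 1 called 6 higher and 3 lower. With the length correction edgeR called 0 higher and 5 lower (median -0.09). The share of all genes called higher was 10.5% with voom and 15.3% without both replicates 1. Called lower were 847 of 20827 genes in the reported fit, 2064 of 20827 with voom and 3301 of 20887 without both replicates 1. With the length correction 6.48% of all genes were called higher and 9.23% lower. The 2 called lower in the reported fit encode chlorophyll-binding relatives of the antenna proteins. ELIP1, an early light-induced protein that accumulates under light stress, stood at 266, 226 and 240 CPM in WT and at 137, 142 and 148 CPM in the mutant-labelled libraries. The groups lay far apart (log2 fold change -0.78, SE 0.072; edgeR adjusted p = 2.4e-05). ELIP1 was called lower under all 17 other settings. LHCB7, a rare member of the LHCB family outside the list of 53, stood at 14.0, 13.9 and 14.8 CPM in WT and at 9.45, 11.3 and 10.2 CPM in the mutant-labelled libraries (log2 fold change -0.47, SE 0.10; edgeR adjusted p = 0.0105). Leaving out replicate 3 of WT ended the call, and so did leaving out replicate 3 of the mutant-labelled group (edgeR adjusted p = 0.0560 and 0.0569).

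Of 22 regulators of light response and chloroplast genes 3 were called lower and 0 higher by edgeR, with a median of -0.11. Of all genes 4.07% were called lower. SIG5, a sigma factor that directs the chloroplast RNA polymerase, stood at 94.8, 91.0 and 84.6 CPM in WT and at 73.3, 76.0 and 76.1 CPM in the mutant-labelled libraries (log2 fold change -0.26; edgeR adjusted p = 0.0328). HYH, a relative of the light-response factor HY5, stood at 11.8, 8.90 and 9.69 CPM in WT and at 6.76, 7.07 and 8.12 CPM in the mutant-labelled libraries (-0.46; edgeR adjusted p = 0.0439). ABI4, a factor of abscisic acid and sugar response, stood at 9.46, 7.40 and 9.39 CPM in WT and at 7.004, 5.81 and 5.78 CPM in the mutant-labelled libraries (-0.49; edgeR adjusted p = 0.0402). The groups did not overlap in any of these 3, which were picked because they were called. Among the 22 regulators the groups did not overlap in 6, against 5400 of 20827 genes tested, in either direction. With 1 library left out, SIG5 kept its call without WT replicate 1 alone, HYH without WT replicate 2 alone, and ABI4 without WT replicate 2 or mutant-labelled replicate 1. In the other such fits the edgeR adjusted p rose to at most 0.124 for SIG5, 0.142 for HYH and 0.179 for ABI4.

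**Figure D5:**
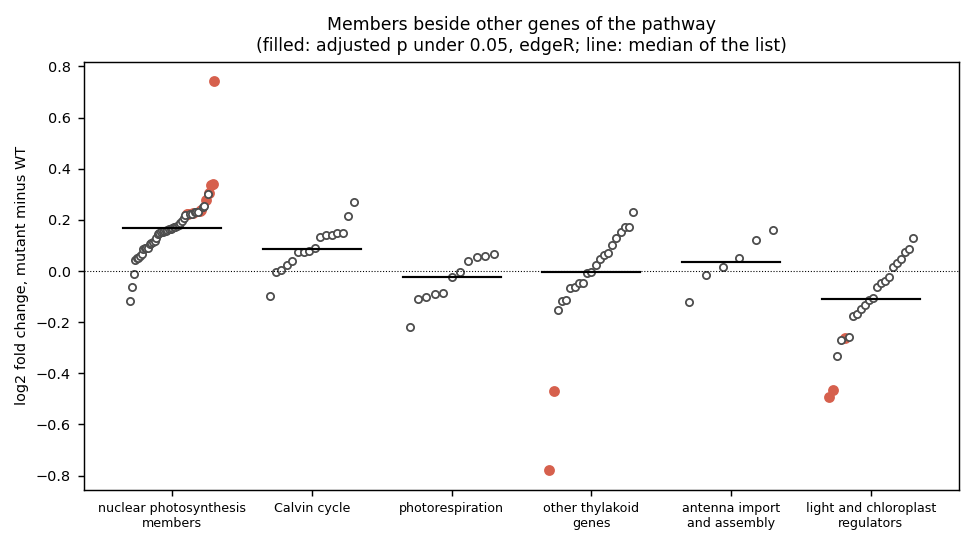
Log2 fold change, mutant-labelled minus WT, of the 53 members and of genes in 5 other lists, with filled points for calls by edgeR and lines for medians. The members have the highest median, 0.17, and the filled points of the other lists lie below 0.

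Markers of silique tissues differed between the groups as well. The 3 embryo markers, 2 of them for seed storage proteins and 1 for an oil body protein, summed to 55777 to 58205 CPM in WT and to 46596 to 49303 CPM in the mutant-labelled libraries, and 2 of the 3 were called lower. The 3 valve markers summed to 102 to 108 CPM in WT and 83.6 to 90.6 CPM in the mutant-labelled libraries, with 2 of 3 called lower. The 3 seed coat markers summed to 488 to 505 CPM in WT and 549 to 576 CPM in the mutant-labelled libraries, with 1 of 3 called higher. The 3 endosperm markers summed to 9.07 to 10.4 CPM and 5.07 to 7.72 CPM, with 1 of 3 called lower. Of 3 markers of pollen and anthers, 1 passed the filter on low counts, PPME1, at 0.303 to 0.439 CPM in WT and 0.548 to 1.103 CPM in the mutant-labelled libraries. CYP703A2 had 14 counts and A9 had 2 over all 6 libraries. The embryo calls and the PHE1 call held with any 1 library left out, whereas each valve and seed coat call was lost in at least 4 of those 6 fits. In whole siliques fewer cells of a type and less RNA per cell cannot be told apart, and the part of these shifts in the members' values was not tested.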

How the data were processed

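The authors deposited 1 table of estimated counts per transcript, 1 column per library, with 2.95% to 3.47% of values not whole (tolerance 1e-09). Per the submitters' processing notes, the tools were featureCounts 1.6.3, HISAT2, DESeq2, Trimmomatic 0.39 and FastQC 0.11.9, in no stated order; the build, the strand setting and the handling of reads that fit several loci are not given in the sources used here. Counts were rounded, filtered (minimum count 10, minimum total 15), scaled by TMM and tested with edgeR 4.0.16 in R 4.3.3 by the quasi-likelihood test with genotype as the only term, and p-values were adjusted over all 20827 loci tested. Standard errors were taken from the F value and the fitted change. CPM are after TMM scaling, and CPM per kb use transcript lengths of TAIR10.1 RefSeq, which also gave coordinates and sequences (27420 of 27628 identifiers matched, all 53 members among them). Of the members, 21 share 50-base windows with another transcript and 18 overlap another gene, 17 of them on the other strand, so their counts are uncertain to that extent. Alternatives were other scalings and filters, DESeq2 1.42.0, limma 3.58.1 voom, a length correction, a replicate block and left-out libraries. The fit was tested on simulated counts with 3 libraries per group and no replicate set apart. It recovered 4 of 50 genes changed 1.2-fold, 14 of 50 at 1.3-fold, 39 of 50 at 1.5-fold and 48 of 50 at 2-fold. There were 12 false calls among 20677 genes. Most changes of 1.2-fold or 1.3-fold were thus missed, and smaller ones were not simulated. Genes were named by a rule: values per library for each called member and, per role group, for the most abundant per length and the largest and smallest change, plus the called or smallest-p genes of each other list. PETE1 falls outside this rule and was chosen after its values were seen. The members and lists were chosen with earlier results of these data known. Chloroplast-encoded genes, between 0.0121% and 0.0471% of counts per library, are not used here.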

Additional observations from a re-analysis of the deposited data

How the results depend on the processing

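The members' median log2 fold change stayed positive under all 17 alternatives, at 0.087 with the length correction, 0.25 without both replicates 1 and 0.14 to 0.21 with 1 library left out. Members called higher numbered 5 with upper-quartile scaling, 20 with library totals, 38 with limma voom, 42 without both replicates 1 and 1 to 25 with 1 library left out, and 1 was called lower with the length correction. Upper-quartile scaling called 4.83% of all genes higher, and library totals 6.01%. Of 901 values of single members by setting, 742 kept their side of the threshold, 55 lost the call, 104 gained it and 0 reversed a call. The 742 include 11 uncalled values, in 6 members, whose sign was opposite to that of the reported fit. The 104 include the call of LHCA5 as lower with the length correction. Of all genes, 2193 were called higher and 2064 lower with voom, 3191 and 3301 without both replicates 1, 1922 lower with the length correction, and 578 to 1534 higher and 426 to 1468 lower with 1 library left out. Of 10 family sums, 2 were called higher, against 8 with voom, 4 with the length correction, 9 without both replicates 1 and 0 to 6 with 1 library left out. The share of all single loci called higher was 4.89% in the reported fit, 10.5% with voom and 6.48% with the length correction. It was 15.3% without both replicates 1 and 2.75% to 7.29% with 1 library left out. Where a count moved, the cause was not tested.

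The labels do not say whether the replicate numbers pair the samples. Deviations of same-numbered libraries from their group means correlated at -0.36, -0.19 and -0.12 for replicates 1, 2 and 3. No library correlated best with its own number. With 3 libraries per group these values cannot decide whether the numbers mark a pairing or a shared batch. With the replicate block, 475 genes were called higher and 320 lower, 1 of them a member (LHCB1.4), and 0 family sums.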
